A study of Mus musculus with 6 samples.

Results

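Thbs1, a secreted ligand of CD47, and 4 surface receptors of macrophages, Clec12a, Cd300lf, Siglecg and Siglec1, are described here in macrophages that met CD47. The 5 genes were chosen by symbol from the 714 genes of the deposited table, and 5 of 5 were found there. The 6 libraries are RNA sequencing of C57BL/6 bone marrow-derived macrophages, 3 of SENP8+/- cells and 3 of wild-type (WT) cells. SENP8+/- cells carry 1 altered copy of Senp8, which encodes a protease for the ubiquitin-like protein NEDD8, and the sample titles call them KO. Cells of both genotypes were grown from marrow for 6 days in medium with serum and GM-CSF at 10 ng/ml, were given streptavidin beads carrying biotinylated mouse CD47, and were harvested for RNA 24 h later. The labels say neither what the alteration of Senp8 is, nor how many mice gave marrow, nor whether replicates are separate cultures. The p-values therefore cover the spread among these libraries only, part or all of which may be technical.

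CD47 is a surface protein of most cells and a brake on engulfment. It binds SIRPα on macrophages, whose cytoplasmic tail holds tyrosine motifs called ITIMs. Phosphorylated ITIMs recruit the phosphatases SHP-1 and SHP-2, which dampen activating signals. CLEC12A, CD300LF and Siglec-G carry motifs of the same kind, so each shares this inhibitory motif with SIRPα but has another ligand. Siglec-1, or sialoadhesin, binds sialic acid for adhesion and has no ITIM. Thrombospondin-1, the product of Thbs1, is a secreted matrix protein that binds the extracellular part of CD47, and also binds CD36.

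The deposited table holds genes that the authors selected for a difference between the genotypes, with a largest p of 0.0499 and a smallest absolute log2 fold change of 1.0001. Presence in the table is therefore no finding about the 5 genes. Values are normalised counts: the authors divided the reads of each gene by a size factor of the library (0.971, 1.07 and 0.933 for SENP8+/- and 1.01, 0.947 and 1.14 for WT). Total depth is unknown here. Senp8 was not analysed here, and its level could not be used to check the genotype labels. None of the 8 macrophage markers was listed, and the cell type was not checked either. WT replicate 3 stood apart: among 545 listed genes with a mean of at least 10 normalised counts it was the WT library farthest from the other two for 285 (52.3%). In the text, fold differences of Thbs1, Siglec1, Clec12a and Cd300lf are given with and without it. Those of other genes are given from all libraries only, and may rest on it.

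All 5 genes were lower in SENP8+/- macrophages than in WT macrophages, and in each the 3 SENP8+/- values lay below the 3 WT values; of all listed genes 79.7% were lower in SENP8+/-. Thbs1 was 3.84-fold, Siglec1 3.50-fold, Siglecg 2.34-fold, Clec12a 2.18-fold and Cd300lf 2.16-fold lower, as ratios of means. Thbs1, Cd300lf and Siglec1, 3 of the 5, had an adjusted p under 0.05 in the authors' deposited table, and "fell" and "rose" are used for genes past that threshold. Of all listed genes 33.9% were past it and lower in SENP8+/-. A limma fit to log2(normalised count + 1) over all listed genes placed 1 of the 5, Thbs1, past an adjusted p of 0.05, against 20.9% of listed genes that passed it and were lower. The limma adjusted p-values may be overstated, because genes outside the table were taken to have larger p-values. Lower values in SENP8+/- without overlap were found for 70.6% of listed genes. The median log2 fold change in the authors' deposited table was -1.23 over the 5 genes and -1.48 over all listed genes. An exact two-sided permutation test of a single gene gave p = 0.10 for each of the 5, the smallest value that 3 against 3 libraries can give. In bulk RNA, fewer cells of a type and less RNA per cell cannot be told apart.

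**Figure D1:**
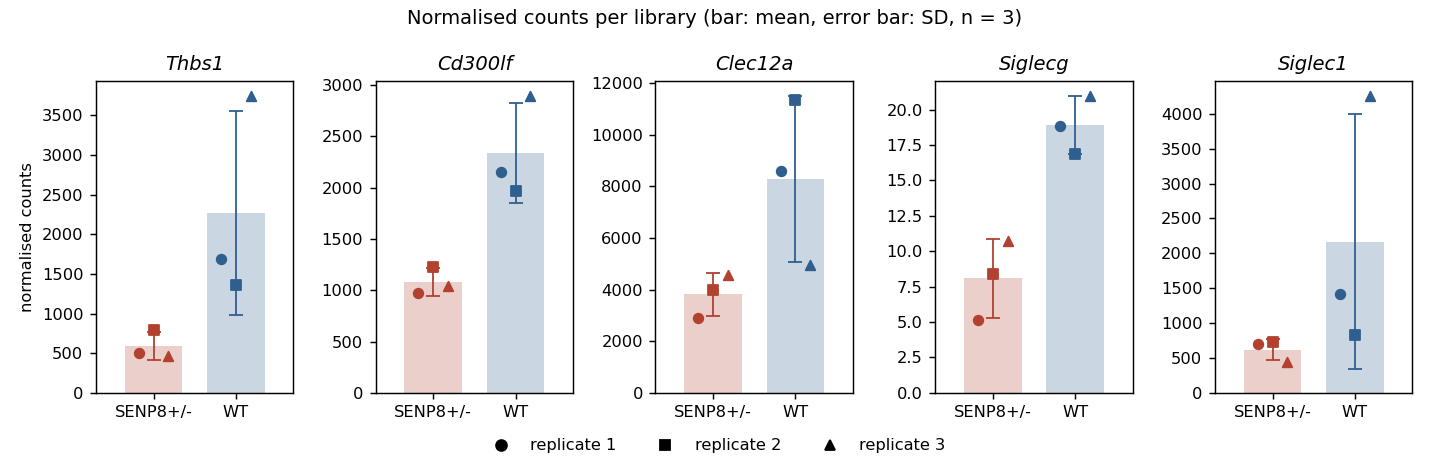
Normalised counts of the 5 genes in each library, SENP8+/- left of WT in each panel; bars are means, error bars are SD (n = 3), and symbols mark the replicate number. WT replicate 3 is the highest WT library for Thbs1 (3746), Cd300lf (2894), Siglecg (20.97) and Siglec1 (4258) and the lowest for Clec12a (4934).

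Thbs1 had the largest ratio of means among the 5 with all libraries in, but not without WT replicate 3, when it was 2.59-fold lower and Clec12a 2.62-fold lower in SENP8+/-. It had 507, 794 and 468 normalised counts in SENP8+/- replicates 1, 2 and 3, against 1689, 1366 and 3746 in WT replicates 1, 2 and 3. The highest SENP8+/- library stayed below the lowest WT library, whose value was 1.72 times as high, while WT replicate 3 held more than the other WT libraries together. Means were 590 ± 178 in SENP8+/- and 2267 ± 1291 in WT (SD, n = 3 each). Thbs1 (ENSMUSG00000040152) is a protein-coding gene on the plus strand of chromosome 2, from 118111876 to 118127133 in GRCm38. The authors' deposited table gives it a log2 fold change of -1.94 and an adjusted p of 5.21e-04. limma gave -1.84 ± 0.37 (SE; 95% interval -2.65 to -1.02; adjusted p = 0.0340). Without WT replicate 3 the WT mean was 1527 and the difference 2.59-fold, with a limma log2 fold change of -1.40 and an adjusted p of 0.0527; over all alternatives that adjusted p ranged from 0.0304 to 0.300. Of the 6 fits with a library left out, only the one without WT replicate 2 kept Thbs1 past the limma threshold. The span of Gm29233, annotated on the opposite strand, overlaps that of Thbs1. Overlap of their exons was not examined and the strand setting of the counting is not given. Whether reads of Gm29233 entered the Thbs1 count is therefore not known.

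Thrombospondins and genes known to bind or cut them were looked up from a list of 22. Of these 2 were listed, Thbs1 and Adamts1, both lower, and Thbs1 alone was called. Adamts1, a protease of the matrix, had 17.5, 9.30 and 5.36 normalised counts in SENP8+/- and 28.7, 16.9 and 31.5 in WT. Its SENP8+/- and WT values overlapped, and its adjusted p in the authors' deposited table was 0.446. The receptors Cd47, Cd36, Itgav, Itgb3 and Lrp1 and the relatives Thbs2, Thbs3, Thbs4 and Comp were not listed. Of 17 genes of the CD47 and SIRPα axis, which include Cd47, Sirpa, Ptpn6 (SHP-1) and Ptpn11 (SHP-2), Thbs1 was the 1 listed. Genes outside the table may have missed either selection limit, may not have been tested, or were not used here, so nothing can be read about their level.

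Cell types that make much thrombospondin-1 include platelets with their precursors and fibroblasts. Of 6 megakaryocyte and platelet markers 0 were listed. Among all listed genes 79.7% were lower in SENP8+/- and 33.9% were called and lower. Of 6 stromal and endothelial markers 6 were listed, all lower in SENP8+/- and 2 called. Their summed level was 700, 405 and 382 normalised counts in SENP8+/- replicates 1, 2 and 3, and 1719, 671 and 1519 in WT replicates 1, 2 and 3, so the genotypes overlapped in this sum. Within WT the sum was highest in replicate 1. Col3a1 and Dcn were also highest there, while Col1a2 and Pecam1 were highest in replicate 3, as Thbs1 was. Col3a1, a fibrillar collagen, fell to 82.3 ± 20.9 in SENP8+/- against 299 ± 192 in WT (adjusted p = 0.0149 in the authors' deposited table). Its groups barely separated, at 106 in SENP8+/- replicate 1 and 108 in WT replicate 2, and limma did not call it (limma adjusted p = 0.180). Col1a2 had 154 ± 65.2 in SENP8+/- and 387 ± 206 in WT, with an adjusted p of 0.170 in that deposited table, and Dcn had 116 ± 27.0 and 257 ± 128 in the same order. The part of these cells in the Thbs1 difference was not tested.

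Clec12a, a C-type lectin-like receptor of myeloid cells that recognises uric acid crystals and restrains inflammation, was the most abundant of the 5. It had 2900, 3969 and 4556 normalised counts in SENP8+/- replicates 1, 2 and 3, and 8599, 11332 and 4934 in WT replicates 1, 2 and 3. The genotypes came close at the highest SENP8+/- library and WT replicate 3, which differed 1.08-fold. Means were 3808 ± 840 in SENP8+/- and 8288 ± 3210 in WT (SD, n = 3 each). Clec12a (ENSMUSG00000053063) lies on the plus strand of chromosome 6, from 129342691 to 129365303. The authors' deposited table gives a log2 fold change of -1.12 with an adjusted p of 0.0554, just above the threshold of 0.05, and limma gave -1.07 ± 0.31 (SE; 95% interval -1.74 to -0.39; adjusted p = 0.177). WT replicate 3 decided the limma call: without it the WT mean was 9966, the difference 2.62-fold, the log2 fold change -1.40 and the limma adjusted p 0.0313, and over all alternatives that adjusted p ranged from 0.0313 to 1.

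Cd300lf encodes an immunoglobulin-like receptor that binds lipids exposed on dying cells, phosphatidylserine among them. It had 971, 1227 and 1043 normalised counts in SENP8+/-, against 2151, 1969 and 2894 in WT replicates 1, 2 and 3. The libraries of each genotype lay close together, with a coefficient of variation of 12.2% in SENP8+/- and 20.95% in WT, and the lowest WT library stood 1.60 times above the highest SENP8+/- library. Cd300lf fell to 1080 ± 132 in SENP8+/- against 2338 ± 490 in WT (SD, n = 3 each). The authors' deposited table gives a log2 fold change of -1.11 and an adjusted p of 6.52e-04, while limma gave -1.10 ± 0.26 (SE; 95% interval -1.67 to -0.53; adjusted p = 0.0687). The difference was 1.91-fold without WT replicate 3. Cd300lf (ENSMUSG00000047798) is on the minus strand of chromosome 11, from 115116214 to 115133992. The span of Rab37 overlaps it on the opposite strand. Overlap of their exons was not examined, so whether reads of Rab37 entered the Cd300lf count is not known.

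Clec12a and Cd300lf are the abundant ITIM receptors among the 5. They were 2.18-fold and 2.16-fold lower in SENP8+/- with all libraries in, but 2.62-fold and 1.91-fold lower without WT replicate 3. The 250 bases before the transcription start of each gene are shown, from RefSeq (GRCm38.p6), 5′ to 3′ on the strand of the gene. Capitals mark GAGGAAG on either strand (CTTCCTC where it reads the other way), a core bound by PU.1, the transcription factor that myeloid cells depend on.
Clec12a, chr6:129349994-129350243, plus strand: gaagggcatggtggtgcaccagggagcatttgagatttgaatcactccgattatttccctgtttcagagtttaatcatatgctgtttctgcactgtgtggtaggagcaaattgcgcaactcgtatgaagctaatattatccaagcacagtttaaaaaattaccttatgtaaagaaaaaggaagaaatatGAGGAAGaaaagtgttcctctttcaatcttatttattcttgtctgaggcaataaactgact
Cd300lf, chr11:115133993-115134242, minus strand: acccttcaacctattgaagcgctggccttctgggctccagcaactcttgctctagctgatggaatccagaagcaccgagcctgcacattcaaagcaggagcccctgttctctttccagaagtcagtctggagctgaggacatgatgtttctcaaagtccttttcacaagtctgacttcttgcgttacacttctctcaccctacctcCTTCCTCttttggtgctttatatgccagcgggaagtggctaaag

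The motif begins 61 bases before the start in Clec12a and 44 bases before it in Cd300lf. Of 32851 RefSeq promoter windows of the same length, 10.6% hold GAGGAAG on at least 1 strand. The motifs were chosen after the sequences had been seen. TTGCNNAA, a core bound by C/EBP factors, is in the Clec12a window as TTGCGCAA, beginning 140 bases before the start, and in 9.56% of all windows; it is not in the Cd300lf window. The G+C content of the windows was 37.2% for Clec12a and 50.0% for Cd300lf. The RefSeq start of Clec12a lies 7553 bases inside the gene as deposited, while that of Cd300lf is the deposited end of this minus-strand gene. Siglecg has 2 windows in the RefSeq table, for 2 starts. One holds the PU.1 core, as CTTCCTC beginning 213 bases before the start, and the other lacks it. Thbs1 and Siglec1 had no window there.

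Siglecg encodes Siglec-G, an inhibitory lectin known best from B-1 cells, where it restrains B cell receptor signals. It was barely detected. It had 5.15, 8.37 and 10.7 normalised counts in SENP8+/- replicates 1, 2 and 3, and 18.8, 16.9 and 20.97 in WT replicates 1, 2 and 3. In units of the smallest step of each library, taken as reads, these are 5, 9 and 10 in SENP8+/- and 19, 16 and 24 in WT. The groups did not overlap and the WT libraries were close together, with means of 8.08 ± 2.79 in SENP8+/- and 18.9 ± 2.04 in WT (SD, n = 3 each). Neither test called the difference: the authors' deposited table gives a log2 fold change of -1.23 and an adjusted p of 0.445, and limma gave -1.18 ± 0.41 (SE; 95% interval -2.06 to -0.29; adjusted p = 0.343). Siglecg (ENSMUSG00000030468) lies on the plus strand of chromosome 7, from 43408204 to 43418358.

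B cells are another source of Siglecg. Of 6 B cell markers 1 was listed, Cd79b, a signalling chain of the B cell receptor, and it was not called (adjusted p = 0.0569 in the authors' deposited table). It had 12.4, 12.1 and 10.7 normalised counts in SENP8+/-, against 32.7, 46.5 and 25.3 in WT. Cd79b thus lay lower in SENP8+/- without overlap, as Siglecg did. The highest WT library was replicate 2 for Cd79b and replicate 3 for Siglecg. At 19, 16 and 24 steps in WT, Siglecg was too low for its order of WT libraries to carry weight. The part of B cells in the Siglecg difference was not tested.

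Siglec1, the sialoadhesin CD169 of tissue macrophages and a gene known to respond to interferon, varied most among WT libraries. It had 696, 724 and 440 normalised counts in SENP8+/- replicates 1, 2 and 3, against 1418, 830 and 4258 in WT replicates 1, 2 and 3. WT replicate 3 held 3.79 times the mean of the other WT libraries, and WT replicate 2 was only 1.15 times the highest SENP8+/- library. Siglec1 fell to 620 ± 156 in SENP8+/- against 2169 ± 1833 in WT (SD, n = 3 each) by the authors' deposited table, with a log2 fold change of -1.81 and an adjusted p of 0.0351. limma, which gave -1.50 ± 0.48 (SE; 95% interval -2.54 to -0.45), did not call it (adjusted p = 0.251). Without WT replicate 3 the WT mean was 1124, the difference 1.81-fold and the log2 fold change -0.84 (limma adjusted p = 0.659; 0.0787 to 1 over all alternatives). Siglec1 (ENSMUSG00000027322) is on the minus strand of chromosome 2, from 131069220 to 131086765.

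**Figure D2:**
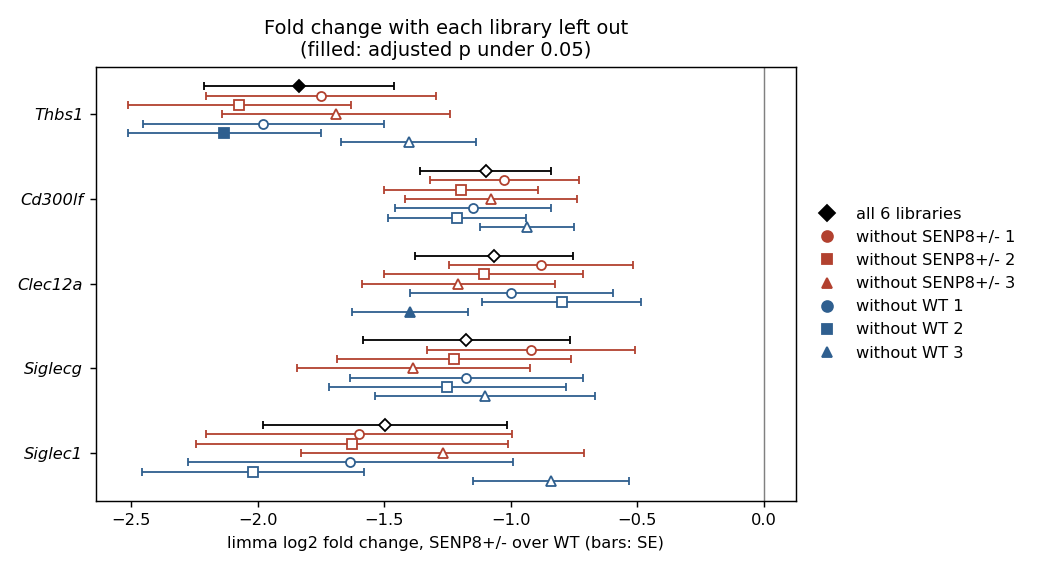
limma log2 fold change (SENP8+/- over WT) of each gene from all 6 libraries and with each library left out; bars are SE and filled symbols have an adjusted p under 0.05. Each value is below 0; leaving out WT replicate 3 gives -1.40 for Thbs1, -0.84 for Siglec1 and -1.40 for Clec12a, against -1.84, -1.50 and -1.07 from all libraries.

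Per kilobase of gene length, the levels of the 5 genes stood in the same order in both genotypes. Clec12a came first with 689 ± 152 normalised counts per kilobase in SENP8+/- and 1499 ± 581 in WT, and Cd300lf second with 210 ± 25.7 in SENP8+/- and 454 ± 95.1 in WT. Thbs1 followed with 97.1 ± 29.2 in SENP8+/- and 373 ± 213 in WT, then Siglec1 with 86.8 ± 21.9 in SENP8+/- and 304 ± 257 in WT. Siglecg was last, at 1.68 ± 0.58 in SENP8+/- and 3.93 ± 0.42 in WT. The ranges of Thbs1 and Siglec1 overlapped in both genotypes, and those of Cd300lf and Thbs1 overlapped in WT but not in SENP8+/-. These neighbours did not differ beyond their spread where their ranges overlapped, although Thbs1 lay above Siglec1 in each of the 3 WT libraries, whereas Clec12a lay above Cd300lf and Siglecg below Siglec1 in every library.

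WT replicate 3 did not stand on the same side for all 5 genes. It was the highest WT library for Thbs1, Siglec1, Cd300lf and Siglecg, at 2.45, 3.79, 1.40 and 1.17 times the mean of the other WT libraries. For Clec12a it was the lowest, at 0.495 times that mean. Among the 545 listed genes with a mean of at least 10, this library was the highest WT library for 211 and the lowest for 239. Likeness over the 6 libraries was measured as the root mean square difference of mean-centred log2(normalised count + 1), where 0 would be the same pattern. Thbs1 and Siglec1 differed by 0.36, Cd300lf and Siglecg by 0.26, and Siglec1 and Clec12a, the least alike pair, by 1.14. All listed genes were selected for a genotype difference, so that difference is part of each likeness.

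The listed genes nearest to each of the 5 were then found among the listed genes of at least the table's median level (26.8 normalised counts). Genes with the symbol of a predicted gene, such as Gm or Rik, were left out of this search. The 3 nearest to Clec12a were Pilra at 0.09, Pilrb1 at 0.10 and Clec4n at 0.10. Pilra encodes an ITIM receptor, Pilrb1 its activating partner and Clec4n the activating lectin Dectin-2. Pilra fell to 775 ± 138 in SENP8+/- against 1739 ± 547 in WT (adjusted p = 0.0130 in the authors' deposited table), but limma did not call it (limma adjusted p = 0.125). Pilrb1 had 183 ± 36.0 in SENP8+/- and 394 ± 154 in WT, and Clec4n had 197 ± 45.4 in SENP8+/- and 427 ± 145 in WT; neither was called. For these 3 genes, as for Clec12a, WT replicate 3 was the lowest WT library, at 1141, 250 and 271 normalised counts.

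Thbs1 was nearest to Prg4, the lubricin gene, at 0.18, to the inositol phosphatase gene Inpp5j at 0.24 and to Rhobtb1 at 0.31. Prg4 had 44.3, 52.1 and 42.9 normalised counts in SENP8+/-, against 117, 96.1 and 308 in WT, and so shared the high WT replicate 3. Siglec1 was nearest to Flnc, the filamin C gene, at 0.26, to the endosomal DNA receptor Tlr9 at 0.27 and to Myrf at 0.28. Tlr9 had 44.3, 27.0 and 19.3 normalised counts in SENP8+/-, against 76.3, 34.8 and 258 in WT, where SENP8+/- replicate 1 lay above WT replicate 2. Cd300lf was nearest to Pyroxd2 at 0.07, to the glycogen synthase gene Gys1 at 0.17 and to Samhd1, a nucleotide phosphatase gene, at 0.18. Samhd1 fell to 5966 ± 413 in SENP8+/- against 13021 ± 849 in WT (adjusted p = 7.09e-08 in the authors' deposited table). Siglecg was nearest to Cpne8 at 0.21, Lpar6 at 0.21 and Ednrb at 0.26.

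**Figure D3:**
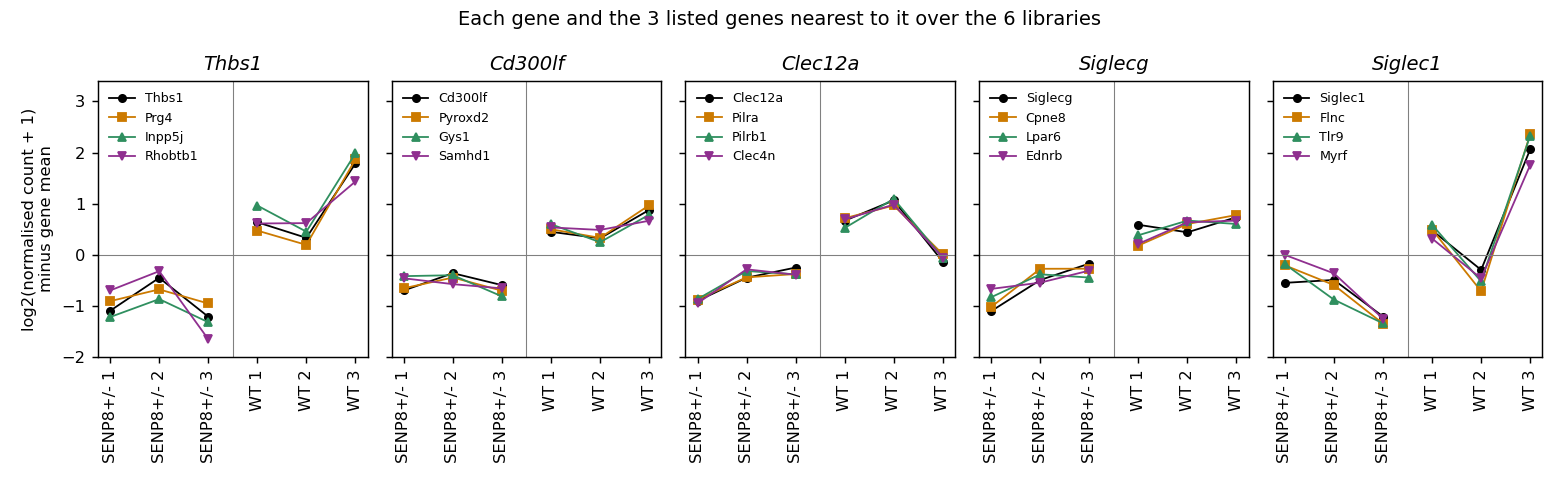
Log2(normalised count + 1) minus the gene's mean over the 6 libraries for each of the 5 genes (black) and the 3 genes nearest to it among those searched, SENP8+/- libraries left of WT; lines join the points of a gene within a genotype and mark no order. WT replicate 3 is the highest WT library in the Thbs1 and Siglec1 panels and the lowest in the Clec12a panel, where Pilra differs from Clec12a by 0.09.

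Relatives of the receptors were looked up by family. Of 9 Siglecs 3 were listed, Siglec1 and Siglecg lower and Cd33 higher, and 2 were called in the authors' deposited table. Cd33, a Siglec of myeloid cells, had 1670, 1643 and 1488 normalised counts in SENP8+/-, against 631, 679 and 868 in WT. The groups did not overlap, and Cd33 rose to 1600 ± 98.0 in SENP8+/- against 726 ± 126 in WT (log2 fold change 1.14 and adjusted p = 3.66e-05 in the authors' deposited table). limma gave Cd33 1.15 ± 0.26 (SE) and did not call it (limma adjusted p = 0.0557). Cd22, Siglece, Siglecf, Siglech, Siglec15 and Mag were not listed.

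Of 18 myeloid C-type lectins 7 were listed, all lower in SENP8+/-, and 3 fell; of all listed genes 79.7% were lower and 33.9% were called and lower. Clec4a1 fell to 232 ± 21.5 in SENP8+/- against 801 ± 196 in WT, with an adjusted p of 4.57e-09 in the authors' deposited table. Clec9a, a receptor of dendritic cells for dead cells, fell to 12.5 ± 3.64 in SENP8+/- against 82.8 ± 11.5 in WT. Clec4e, the activating lectin Mincle, fell to 935 ± 96.8 in SENP8+/- against 1920 ± 632 in WT, but limma did not call it (limma adjusted p = 0.187). Of 8 genes of the CD300 family Cd300lf was the 1 listed.

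Of 20 genes looked up as ITIM receptors 6 were listed, 5 lower and 1 higher. The 1 higher was Cd33. Protein sequences were not examined, so whether mouse Cd33 carries an ITIM and is inhibitory was not checked. Of the 4 called, Cd300lf, Pilra and Pecam1 fell and Cd33 rose, while Clec12a and Siglecg were not called. These calls are those of the authors' deposited table, where 41.3% of all listed genes were called in either direction. limma called 1 of the 6, Pecam1 (limma adjusted p = 0.0340), against 20.9% of listed genes that it called and that were lower. Pecam1, an adhesion molecule of endothelium and leukocytes, stood at 6.18, 0.930 and 0 normalised counts in SENP8+/-, against 17.8, 16.9 and 25.3 in WT. Sirpa, Fcgr2b, Pirb and Lair1 were among the 14 not listed. Of 20 genes of activating receptors and their ITAM adaptors 4 were listed, all lower, and 2 fell, against 33.9% of all listed genes called and lower. Besides Clec4e these included Fcgr4, an activating Fc receptor, which fell to 1260 ± 117 in SENP8+/- against 4254 ± 1616 in WT (adjusted p = 2.67e-05 in the authors' deposited table). None of 14 kinases, phosphatases and adaptors that act on ITIMs and none of 16 genes of sialic acid metabolism was listed.

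**Figure D4:**
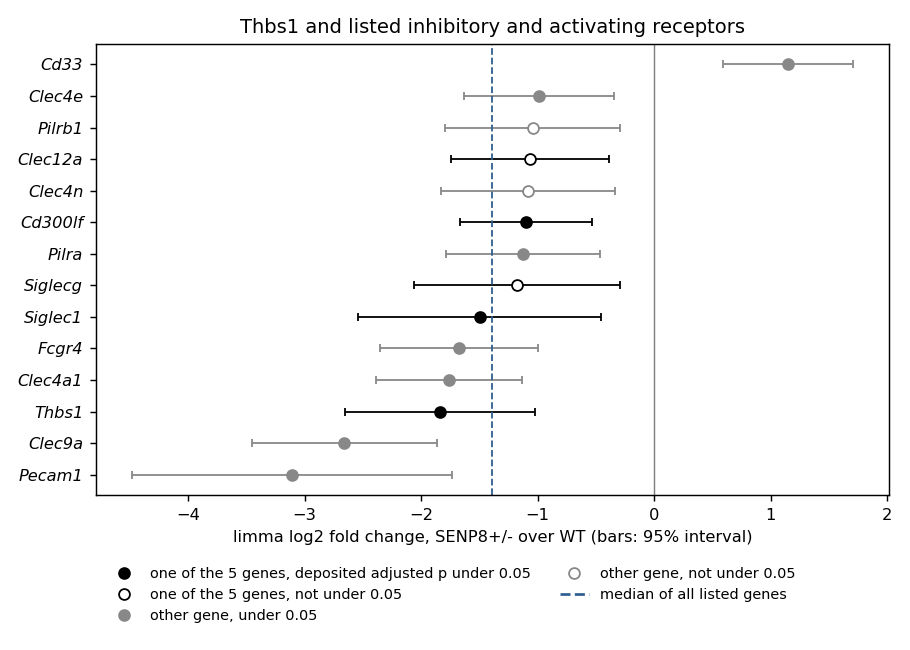
limma log2 fold change (SENP8+/- over WT, horizontal axis) with its 95% interval for the 5 genes (black) and named listed receptors of the same families (grey); filled symbols have an adjusted p under 0.05 in the authors' deposited table and the dashed line is the limma median of all listed genes, -1.39. Cd33 is the 1 receptor above 0, at 1.15, and Thbs1 is at -1.84.

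Marrow cultures in GM-CSF are known to hold dendritic-like cells and granulocytes beside macrophages. Those markers of neutrophils, dendritic cells and T and NK cells that were listed were lower in SENP8+/-, as Clec12a, Cd300lf and Siglec1 were. Of 6 neutrophil markers 2 were listed and both fell, with a summed level of 357 to 559 normalised counts in SENP8+/- and 1170 to 1559 in WT. Csf3r made up most of this sum in each library, and Retnlg was at 0 in all SENP8+/- libraries. Of 6 dendritic cell markers 2 were listed, Clec9a and Ccl22, and both fell. Their sums were 177 to 276 in SENP8+/- and 545 to 786 in WT, mostly from Ccl22. Of 6 T and NK cell markers 4 were listed and all fell, with sums of 1.07 to 6.18 in SENP8+/- and 56.8 to 128 in WT, Gzma and Ncr1 being at 0 in SENP8+/-. Of all listed genes 33.9% were called and lower, and the table holds only genes selected on this contrast. The markers of a type did not share 1 order of the WT libraries. Ccl22 had 711, 537 and 449 normalised counts in WT replicates 1, 2 and 3 and was lowest in replicate 3, while Clec9a, with 75.3, 77.1 and 96.1, was highest there. Csf3r, with 1147, 1155 and 1553, was highest in replicate 3 and Retnlg, with 22.8, 14.8 and 6.12, lowest. The part of these cells in the differences was not tested.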

How the data were processed

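The submitters' processing notes name HISAT2 2.0.5 and featureCounts 1.5.0-p3. Genome build, annotation, strand setting and the authors' test were not given in the sources used here. Each deposited library column is a signal, the authors' read counts over 1 size factor, and 100% of values in each library are whole multiples of 1 step (tolerance 1e-06). Log2 fold changes (SENP8+/- over WT), p-values and adjusted p-values were deposited by the authors, and gene lengths are as deposited. The authors' correction covered 14694 genes, from the ratio of adjusted to raw p of the top gene. Positions of 5 of the 5 genes equal GENCODE M21 (GRCm38). Columns of other samples numbered 0.

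limma 3.58.1 (R 4.3.3; empirical Bayes with trend, genotype as the only term) was fitted to log2(value + 1) over 714 genes with no filter, after being tested on simulated data. Its p-values were Benjamini-Hochberg adjusted over 14694 genes, with genes outside the table taken to have larger p-values. In the authors' test some genes outside the table had smaller p-values than Siglecg. Its deposited adjusted p of 0.445 is lower than its rank among the listed genes would give. If the same holds for limma, its adjusted p-values are overstated, and genes just above the threshold might pass it among all genes. Since the genes were selected on this contrast, their effects are on average overstated, the variance prior comes from selected genes, and they give no scaling of their own. The authors' scaling was kept. Alternatives were 2 pseudocounts (0.5 and 5), a minimum mean of 10, the replicate block, no size factors, no trend, and each library left out. Named genes are the 5, up to 4 listed genes of each gene list by smallest deposited p, and for each of the 5 the 3 nearest listed genes of at least median level. Predicted genes (symbols such as Gm or Rik) were not candidates for the nearest genes. The genes and lists were chosen with earlier results of these data known.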

Additional observations from a re-analysis of the deposited data

How the results depend on the processing

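The 5 genes in 12 alternative fits gave 60 log2 fold changes, and 60 of the 60 were below 0. Since the genotypes did not overlap in any of the 5, leaving out a library or changing the pseudocount could not turn the sign. Of the 60, 52 kept their side of the threshold, mostly genes that stayed uncalled. Thbs1, the 1 gene past it from all libraries, stayed past it in 5 of 12. Thbs1 passed the limma threshold from all libraries and missed it without size factors (-1.89, adjusted p = 0.120) and without the mean-variance trend (-1.84, adjusted p = 0.129), where the count of the 5 genes past it came to 0 in both cases; the unadjusted limma p was then under 0.05 for 5 of 5, and 3 are called in the authors' deposited table. With 1 library left out, Thbs1 ranged from -2.13 to -1.40 and passed only without WT replicate 2 (adjusted p = 0.0376; 0.0304 to 0.300 over its alternatives). Clec12a ranged from -1.40 to -0.80 and passed only without WT replicate 3. The count of the 5 genes past the threshold was 0 to 1 in these refits, with 4 or 5 at an unadjusted limma p under 0.05, and that of all listed genes was 11 to 181, against 176. The cause was not tested. With the replicate block Thbs1 had -1.84 (adjusted p = 0.0351), the count of listed genes was 174 against 176, and no call among the 5 changed. Same-numbered libraries correlated by 0.01, -0.04 and -0.37 in their deviations from the genotype means over 545 genes. Libraries with unlike numbers correlated by -0.30 to 0.37, so these values cannot show whether the numbers pair the libraries. Planned count models were not run: the step of WT replicate 1, 0.990, is close to 1, so its column was not accepted as recovered reads. Siglecg stood at 5 to 24 steps of its libraries, and how far counting error limits it was not tested.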
